A study of Capra hircus with 6 samples.

Results

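Integrins are the receptors by which cells hold on to their matrix, and laminins are the trimers from which basement membranes are assembled. The genes of both families, with the nidogen genes NID1 and NID2 and the perlecan gene HSPG2, were taken from the rows of the deposited tables by symbol. They came to 37 of 16262 genes, of which 24 encode integrin subunits (16 alpha and 8 beta) and 13 encode laminin chains, nidogens or perlecan. ITGAD, ITGAL, LAMA1 and LAMB2 were not analysed here.

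RNA sequencing compared 2 groups of goat (Capra hircus) adipose mesenchymal stem cells, progenitors in fat that can turn into fat cells, bone or cartilage. There were 3 libraries of cells that overexpress TAZ and 3 control libraries of wild-type genotype, and all 6 carry the treatment label adipogenic differentiation. TAZ is a transcriptional coactivator of the Hippo pathway and is encoded by WWTR1. The series title also names TNF-α, which no sample label mentions, and the labels give no age, sex, expression vector, promoter or clone number and no empty-vector control. By its title the study is concerned with TAZ in adipogenesis.

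An integrin is a pair of 1 alpha and 1 beta subunit, and the pair decides the ligand. Beta1 joins many alpha subunits to form receptors for collagens, laminins and fibronectin, whereas alphaV can also join beta3, beta5, beta6 or beta8. In a basement membrane, laminin trimers of an alpha, a beta and a gamma chain polymerize, nidogens and perlecan link them to the collagen IV network, and integrins anchor the cell to the sheet. Fibroblast-like stromal cells rest largely on fibronectin and fibrillar collagens, while mature fat cells are each wrapped in a laminin-rich basement membrane.

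Levels are in FPKM, fragment numbers scaled to gene length and library size, so that levels of different genes can be set side by side. The libraries held 17035481 to 18852822 fragments in the TAZ group and 16935698 to 17483995 in the control group, as recovered from the steps between low values. ITGA11, one of the low genes tested, rested on 797 fragments in the TAZ libraries together and 2245 in the controls, and ITGA8, lower still, on 262.5 and 607 fragments. WWTR1 stood at 84.2 to 118.1 FPKM in the TAZ libraries and 29.9 to 35.9 FPKM in the controls (limma adjusted p = 6.91e-07), which is the direction the labels give. All 13 stromal marker genes in the tables (PDGFRA, THY1, COL1A1 and others) were above 1 FPKM. Of the markers of other cell types, 11 of 14 leukocyte, 7 of 8 endothelial, 10 of 11 epithelial, 7 of 8 skeletal muscle, 5 of 7 pericyte and 2 of 4 platelet genes stayed under 1 FPKM in every library. In bulk RNA, a change in the number of cells of a type and a change in RNA per cell cannot be told apart.

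Both families split, with members that rose and members that fell, and their most abundant members did not pass the test. Genes were tested where at least 3 of the 6 libraries had 1 FPKM or more. Fold changes are TAZ minus control on the log2(FPKM + 1) scale, which understates changes of low genes, and a call is an adjusted p under 0.05 from limma, adjusted over all 10750 genes tested. Of the 37 genes 23 were tested, and 6 were higher in the TAZ libraries (26.1%), 9 lower (39.1%) and 8 not called. Over all tested genes 15.7% were higher and 22.1% lower, 37.9% in all. The genes called higher were 4 integrins and 2 of the others, which became 2 and 1 without control replicate 2, and 1 of the others was higher without TAZ replicate 1 or 2. The median log2 fold change was -0.18 for the 23 genes, against -0.050 for all tested genes. ITGA8 and LAMA2 passed the filter only through the controls, where they were higher, so that their direction was bound to that filter. The groups did not overlap for 6 of the 23 genes in the higher and 11 in the lower direction, where 19.7% and 28.7% of all tested genes did so, or 48.4% in either direction.

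**Figure D1:**
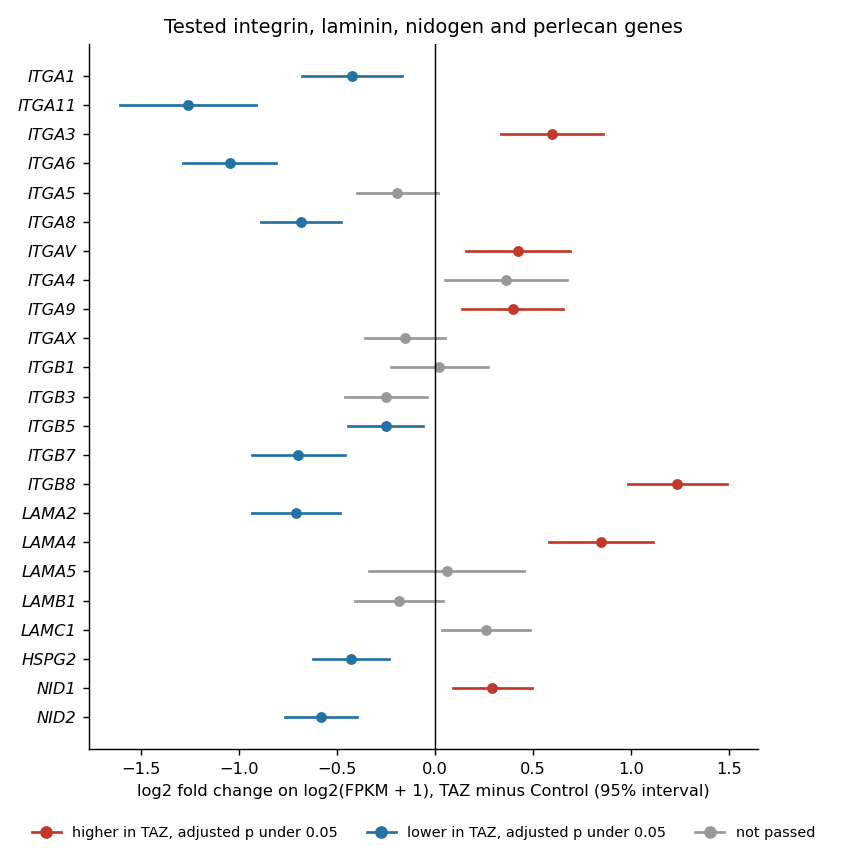
Log2 fold change (TAZ minus Control, on the log2(FPKM + 1) scale) of the 23 tested genes with 95% intervals from limma, in the order of their roles. The points run from -1.26 for ITGA11 to 1.24 for ITGB8, and the intervals of ITGA5, ITGAX, ITGB1, LAMA5 and LAMB1 lie across 0. Red points were called higher, blue points lower and grey points not called.

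The alpha subunits that bind collagen were lower in TAZ cells. ITGA11, which encodes the alpha subunit of a fibrillar collagen receptor of fibroblasts, stood at 3.03, 2.44 and 2.98 FPKM in TAZ replicates 1 to 3, against 5.65, 10.03 and 9.31 FPKM in the controls. All TAZ libraries lay below all controls, and control replicate 1 was the lowest of its group. ITGA11 fell to 0.338 times the control level (log2 fold change -1.26, SE 0.16, limma adjusted p = 4.55e-05), which ranked 45th among the falls of all tested genes. ITGA1, whose product pairs with beta1 to bind collagens, collagen IV above all, stood at 5.21, 4.21 and 4.36 FPKM in TAZ libraries, against 5.85, 5.93 and 7.78 FPKM in controls. ITGA1 fell by 0.42 on the log2 scale (SE 0.12, adjusted p = 0.0134), and this call was lost without TAZ replicate 2 (adjusted p = 0.0551) or with no filter on low genes (0.058), with 0.00608 to 0.058 over 16 alternatives. The other alpha subunits of this class, ITGA2 and ITGA10, were under the filter. Summed over the 4 genes, the collagen-binding alpha subunits came to 8.54, 6.88 and 7.58 FPKM in TAZ libraries and to 12.5, 16.7 and 17.9 FPKM in controls.

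The laminin-binding alpha subunits moved in opposite directions. ITGA3 encodes the alpha subunit of a receptor for laminins with the alpha3 or alpha5 chain. It stood at 70.7, 76.8 and 69.7 FPKM in TAZ libraries and at 59.7, 42.1 and 42.4 FPKM in controls. Control replicate 1 was nearest to the TAZ group, and no values overlapped. The level was 1.51 times as high in TAZ cells (log2 fold change 0.60, SE 0.12, limma adjusted p = 0.00176). ITGA6, whose product joins beta1 or beta4 to bind laminins widely, stood at 11.6, 9.92 and 10.05 FPKM in TAZ libraries and at 24.8, 19.4 and 24.5 FPKM in controls. ITGA6 fell to 0.460 times the control level (log2 fold change -1.05, SE 0.11, adjusted p = 7.24e-06), with a wide gap between the groups. ITGA3 therefore made up 85.8, 88.3 and 87.3% of the summed FPKM of the laminin-binding alpha subunits in TAZ libraries, against 70.6, 68.3 and 63.3% in controls. ITGA7, the muscle laminin receptor subunit, was at 0.083 to 0.226 FPKM in TAZ libraries and 0.0886 to 0.103 FPKM in controls.

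Among the alpha subunits that recognize the RGD motif, ITGA5 dominated and did not pass. ITGA5, the alpha subunit of the main fibronectin receptor, was the most abundant alpha gene at 149.8, 181.2 and 150.3 FPKM in TAZ libraries, against 198.6, 177.4 and 173.1 FPKM in controls. The groups overlapped, with a log2 fold change of -0.19 (95% interval -0.40 to 0.014, limma adjusted p = 0.132). ITGA5 passed as lower without TAZ replicate 2, at an adjusted p of 0.0414 (range over 16 alternatives 0.0414 to 0.371). ITGAV, the partner of the beta subunits that bind and activate latent TGF-beta, stood at 78.2, 65.4 and 63.1 FPKM in TAZ libraries and at 50.6, 42.8 and 60.9 FPKM in controls. The lowest TAZ library was only just above control replicate 3. ITGAV was 1.34 times as high (log2 fold change 0.42, SE 0.12, adjusted p = 0.0156), but this call was lost without TAZ replicate 1 (0.0611), without control replicate 2 (0.0661) or with no filter (0.0736), with 0.001 to 0.0736 over 16 alternatives. ITGA8, which encodes a nephronectin-binding subunit, was low at 0.721, 0.620 and 0.845 FPKM in TAZ libraries, against 1.84, 1.70 and 1.77 FPKM in controls (log2 fold change -0.68, SE 0.095, adjusted p = 9.34e-05). The platelet gene ITGA2B ran from 0.631 to 0.828 FPKM in TAZ libraries and from 0.697 to 0.851 FPKM in controls. The 4 platelet markers, of which ITGA2B is 1, summed to 1.86 to 3.30 FPKM in TAZ libraries and 1.76 to 2.51 FPKM in controls. Among them PPBP was at 1.39, 0.594 and 1.21 FPKM in TAZ libraries, against 0.0711, 0 and 0 FPKM in controls, and was called higher in limma with no filter (adjusted p = 0.00393) and in limma's voom on recovered fragments with no filter (4.3e-05).

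ITGA9 and ITGA4 encode a related pair of subunits that bind tenascin, osteopontin or VCAM1. ITGA9 stood at 15.2, 17.6 and 13.5 FPKM in TAZ libraries and at 13.03, 9.74 and 11.7 FPKM in controls, with no overlap and a narrow gap. ITGA9 rose by 0.40 on the log2 scale (SE 0.12, limma adjusted p = 0.0185). The call was lost without TAZ replicate 2 (adjusted p = 0.0865), without control replicate 2 (0.0815) or with no filter (0.069), with 0.00912 to 0.0865 over 16 alternatives. ITGA4 was at 2.68, 1.89 and 2.02 FPKM in TAZ libraries, against 0.973, 1.61 and 1.93 FPKM in controls, and the groups overlapped (log2 fold change 0.36, SE 0.14, adjusted p = 0.0618). It passed as higher without control replicate 3 (0.0114), under median-ratio scaling (0.0449) and on recovered fragments (0.0462), and its adjusted p ran up to 0.263 over the alternatives. Of the alpha subunits known from leukocytes, ITGAX was the only one tested and did not pass, at 1.55, 1.55 and 1.76 FPKM in TAZ libraries and 1.86, 1.83 and 2.07 FPKM in controls (adjusted p = 0.22). ITGAE was at 0.159 to 0.223 FPKM in TAZ libraries and 0.150 to 0.258 FPKM in controls, and ITGAM had 2.5 fragments in the 3 TAZ libraries together and 1.5 in the controls.

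**Figure D2:**
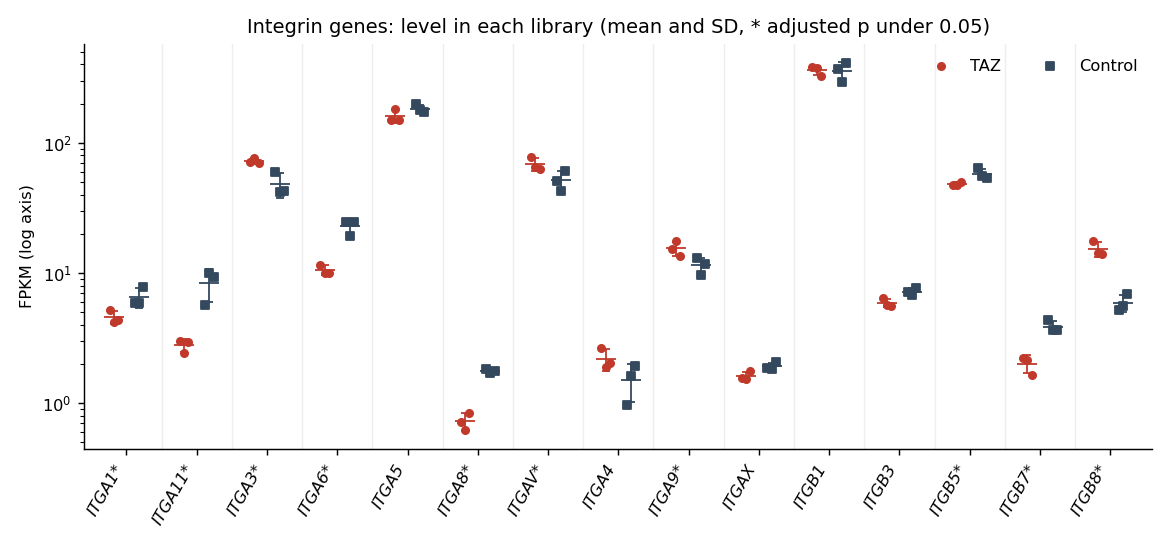
FPKM (log axis) of the 15 tested integrin genes in each library, TAZ left of Control for every gene, with the mean as a horizontal line and the SD as whiskers (n = 3 each); an asterisk marks an adjusted p under 0.05. ITGB1 and ITGA5 stand highest in both groups, and the widest gaps are at ITGB8, ITGA11, ITGA6 and ITGA8.

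ITGB8 had the largest rise of the tested integrins and laminins, while ITGB1, the common beta subunit, did not differ beyond its spread. ITGB8, whose product joins alphaV to bind and activate latent TGF-beta, stood at 17.6, 14.2 and 13.9 FPKM in TAZ libraries and at 5.20, 5.60 and 6.86 FPKM in controls. Every TAZ library was above every control by a wide margin. The level was 2.59 times as high in TAZ cells (log2 fold change 1.24, SE 0.12, limma adjusted p = 3.04e-06). ITGB1 was the most abundant of the 37 genes, at 379.0, 378.5 and 324.6 FPKM in TAZ libraries and at 370.0, 294.7 and 406.8 FPKM in controls. The controls spread to both sides of the TAZ values, and the log2 fold change was 0.023 (95% interval -0.22 to 0.27, adjusted p = 0.895).

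The other 3 tested beta subunits were lower or did not pass. ITGB7, a partner of alpha4 and alphaE that is best known from lymphocytes, stood at 2.24, 2.15 and 1.66 FPKM in TAZ libraries, against 4.37, 3.63 and 3.63 FPKM in controls. ITGB7 fell to 0.520 times the control level (log2 fold change -0.70, SE 0.11, limma adjusted p = 0.000277). ITGB5, a vitronectin receptor subunit, was at 47.3, 47.6 and 50.3 FPKM in TAZ libraries and at 64.2, 55.6 and 54.0 FPKM in controls. ITGB5 fell by 0.25 on the log2 scale (SE 0.088, adjusted p = 0.0399), and the call held in only 7 of 16 alternatives, with adjusted p from 0.0224 to 0.172. It was lost without TAZ replicate 1, 2 or 3 (0.111, 0.098 and 0.0649), without control replicate 1 or 2 (0.172 and 0.0551), and under median-ratio scaling (0.106). ITGB3, the beta subunit of the classical vitronectin receptor, was at 6.39, 5.71 and 5.61 FPKM in TAZ libraries, against 7.11, 6.80 and 7.73 FPKM in controls. Its groups did not overlap, yet it did not pass (log2 fold change -0.25, 95% interval -0.46 to -0.042, adjusted p = 0.0571), and it did under quantile normalization (0.0243) and without the mean-variance trend (0.0488), with 0.0243 to 0.190 over 16 alternatives.

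Summed over the subunits, levels overlapped between the groups, while the shares of some subunits did not. Summed alpha subunits came to 340.1, 362.9 and 320.0 FPKM in TAZ libraries and 365.0, 314.3 and 337.4 FPKM in controls. Summed beta subunits came to 453.5, 449.1 and 397.1 FPKM in TAZ libraries and 451.8, 367.2 and 479.8 FPKM in controls. ITGB1 held 83.2 ± 1.30% of the beta sum in TAZ libraries and 82.3 ± 2.30% in controls (mean ± SD, n = 3 each). Of the beta subunits other than beta1 that can join alphaV (ITGB3, ITGB5, ITGB6 and ITGB8), ITGB8 held 24.7, 21.0 and 19.9% in TAZ libraries, against 6.79, 8.24 and 9.99% in controls. ITGB5 remained the most abundant of these, with 69.6 ± 2.93% in TAZ libraries and 81.5 ± 2.61% in controls. Shares of messenger RNA do not give the shares of receptor pairs at the cell surface, which were not measured.

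**Figure D3:**
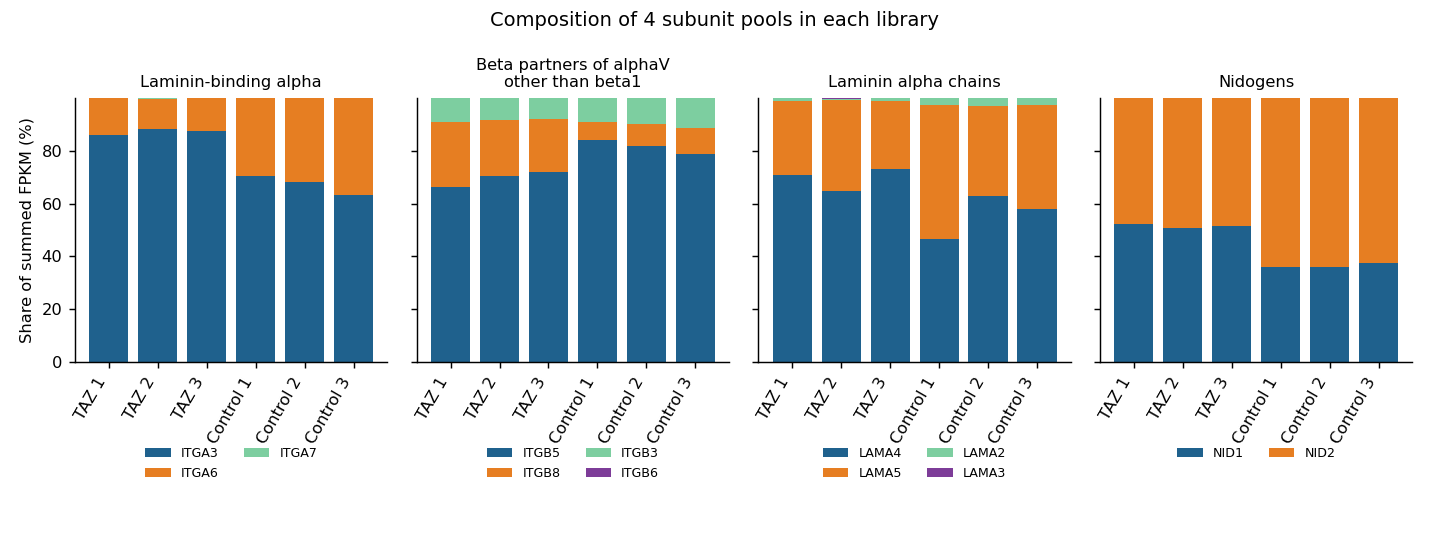
Share of summed FPKM (percent, bars from 0 to 100) held by each gene within 4 pools, with 1 bar per library and the TAZ libraries left of the controls. In TAZ libraries ITGA3 held 85.8 to 88.3% of the laminin-binding alpha pool and NID1 50.9 to 52.2% of the nidogens, and ITGB8 19.9 to 24.7% of the alphaV partners.

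Of the 3 tested laminin alpha chains 1 was higher, 1 lower and 1 not called, and the common beta and gamma chains did not pass. LAMA4, the alpha chain of laminins of vessel walls and of mesenchymal and fat cells, stood at 72.8, 59.3 and 60.4 FPKM in TAZ libraries and at 30.1, 33.6 and 42.8 FPKM in controls. The groups lay far apart, and LAMA4 was 1.81 times as high in TAZ cells (log2 fold change 0.85, SE 0.12, limma adjusted p = 0.000135). Of the endothelial markers, KDR was at 0 in all libraries, CDH5 was at 0 in the TAZ libraries and PECAM1 was at 0.061 to 0.125 FPKM there, against 0.271 to 0.419 FPKM in controls. The 8 endothelial markers summed to 5.83 to 6.34 FPKM in TAZ libraries and 10.2 to 11.2 FPKM in controls, nearly all of it ERG, and the 7 pericyte markers to 39.2 to 50.6 FPKM and 34.9 to 45.5 FPKM. ERG was the only endothelial marker in the main test and was called lower (log2 fold change -0.71, limma adjusted p = 5.4e-05). It was at 5.52 to 6.12 FPKM in TAZ libraries, against 9.63 to 10.7 FPKM in controls. Among the low endothelial markers PECAM1 was called lower with no filter and with voom (adjusted p = 0.00415 and 0.000667). VWF, at 0.0486 to 0.102 FPKM in TAZ libraries and 0.0232 to 0.0405 FPKM in controls, was called higher with voom (0.0324) but not with no filter (0.0728). The pericyte marker NOTCH3 rose to 17.0, 18.1 and 17.1 FPKM in TAZ libraries, against 13.7, 11.6 and 11.98 FPKM in controls (adjusted p = 0.00192), while CSPG4 did not pass (0.969). DES, a pericyte and skeletal muscle marker, was at 0.205 to 0.247 FPKM in TAZ libraries, against 0.377 to 0.422 FPKM in controls. It was called lower with no filter (adjusted p = 0.00218) but not with voom (0.0552). The part of endothelial cells and pericytes in the LAMA4 result was not tested. LAMA2, the alpha chain of muscle and nerve laminins, was low at 0.884, 0.574 and 0.650 FPKM in TAZ libraries and 1.74, 1.61 and 1.99 FPKM in controls (log2 fold change -0.71, SE 0.10, adjusted p = 0.000145).

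LAMA5, which encodes a widespread laminin alpha chain of adult basement membranes, stood at 28.9, 31.5 and 21.6 FPKM in TAZ libraries and at 32.8, 18.1 and 29.05 FPKM in controls. The libraries of both groups were spread over the same range, and the log2 fold change was 0.061 (95% interval -0.34 to 0.46, limma adjusted p = 0.825). LAMA4 held 70.8, 64.7 and 72.9% of the summed laminin alpha chains in TAZ libraries, against 46.6, 63.0 and 57.9% in controls. The sum itself was 102.8, 91.6 and 82.8 FPKM in TAZ libraries and 64.7, 53.3 and 73.9 FPKM in controls, with no overlap.

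LAMC1, the gamma chain of most laminins, was the most abundant laminin gene at 170.6, 176.8 and 150.4 FPKM in TAZ libraries, against 152.0, 118.7 and 146.2 FPKM in controls. TAZ replicate 3 lay below control replicate 1, and the log2 fold change of 0.26 did not pass (SE 0.10, 95% interval 0.034 to 0.48, limma adjusted p = 0.0666). LAMC1 passed as higher without TAZ replicate 3 (0.0423), without control replicate 1 or 3 (0.0415 and 0.0445), under median-ratio scaling (0.033) and under quantile normalization (0.0458), with 0.033 to 0.271 over 16 alternatives. LAMB1, a common beta chain, was at 59.9, 54.5 and 55.4 FPKM in TAZ libraries and at 64.8, 55.2 and 74.1 FPKM in controls (log2 fold change -0.18, 95% interval -0.41 to 0.043, adjusted p = 0.19). LAMB1 passed as lower without control replicate 2, at an adjusted p of 0.0428 (0.0428 to 0.551 over 16 alternatives).

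The nidogens moved in opposite directions, and perlecan was lower. NID1 stood at 63.6, 58.2 and 55.2 FPKM in TAZ libraries and at 46.6, 44.3 and 53.2 FPKM in controls. NID2 stood at 58.1, 56.2 and 51.8 FPKM in TAZ libraries and at 82.9, 78.7 and 88.7 FPKM in controls. Both encode linkers between laminin and collagen IV, and for neither did the groups overlap. NID2 fell to 0.664 times the control level (log2 fold change -0.58, SE 0.085, limma adjusted p = 0.000135). NID1 was 1.23 times as high (log2 fold change 0.29, SE 0.093, adjusted p = 0.0248), but it did not pass without TAZ replicate 1 or 2 (0.105 and 0.0523), without control replicate 1 or 2 (0.0696 and 0.0988) or with no filter (0.0503), with 0.00651 to 0.105 over 16 alternatives. The share of NID1 in the nidogen sum was 52.2, 50.9 and 51.6% in TAZ libraries and 36.0, 36.05 and 37.5% in controls. The shares varied little within each group. HSPG2, the heparan sulfate proteoglycan perlecan, was at 37.1, 37.7 and 32.6 FPKM in TAZ libraries and at 47.8, 45.7 and 51.8 FPKM in controls. HSPG2 fell to 0.739 times the control level (log2 fold change -0.43, SE 0.090, adjusted p = 0.00232).

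**Figure D4:**
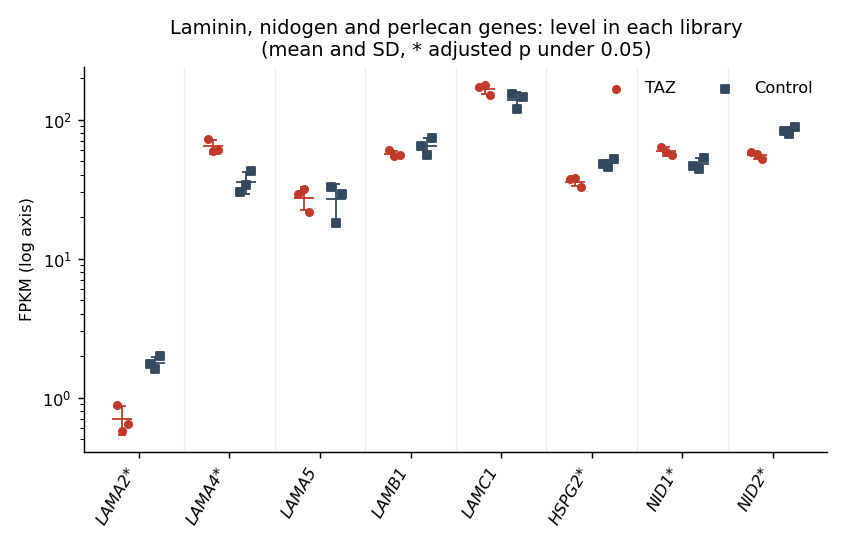
FPKM (log axis) of the 8 tested laminin, nidogen and perlecan genes in each library, TAZ left of Control for every gene, with the mean as a horizontal line and the SD as whiskers (n = 3 each); an asterisk marks an adjusted p under 0.05. LAMA4 and NID1 stand higher and LAMA2, HSPG2 and NID2 lower in the TAZ libraries, while LAMA5, LAMB1 and LAMC1 overlap.

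The remaining 14 genes never reached 1 FPKM in any library and were outside the test. Their values are given with 2 other fits over all genes, limma with no filter and limma's voom on the recovered fragments with no filter, the second of which was added after the data had been seen. With no filter, 2 of the 14 were called higher and 3 lower, where 6.51 and 7.44% of all genes under the filter were. With voom 2 were called higher and 4 lower, against 7.76 and 9.60%.

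ITGB2, the beta subunit of the leukocyte integrins, was at 0.411, 0.317 and 0.342 FPKM in TAZ libraries, against 0.117, 0 and 0.00988 FPKM in controls. These values stood for 56.5 and 6.5 fragments in all, and ITGB2 was called higher in both fits (adjusted p = 0.00224 with no filter, 0.000446 with voom). PTPRC and LCP2, defining leukocyte genes, were at 0 in all 6 libraries, and CSF1R was at 0.0305 to 0.0414 FPKM in TAZ libraries and 0.0149 to 0.0526 FPKM in controls. The 14 leukocyte markers summed to 30.7 to 31.8 FPKM in TAZ libraries and 21.9 to 24.4 FPKM in controls. CD14, CORO1A and CD68 were the 3 markers above 1 FPKM, of which CD14 rose (23.8 to 24.5 FPKM in TAZ libraries, against 8.17 to 10.9 FPKM in controls) and the others fell. The lymphocyte markers CD3E and CD79A were lower, as ITGB7 was. CD3E was at 0.0195 to 0.151 FPKM in TAZ libraries and 0.544 to 0.681 FPKM in controls (adjusted p = 0.00066 with no filter, 0.000201 with voom). CD79A was at 0 to 0.0216 FPKM in TAZ libraries and 0.141 to 0.319 FPKM in controls (0.0129 and 0.000331). The part of leukocytes in the ITGB2 and ITGB7 results was not tested.

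LAMA3, the alpha chain of epithelial laminin, was at 0.168, 0.222 and 0.157 FPKM in TAZ libraries and 0.0264, 0.0327 and 0.0560 FPKM in controls, from 108 and 21.5 fragments. LAMA3 was called higher in both fits (adjusted p = 0.00264 with no filter, 0.000125 with voom). LAMB3, a beta chain of epithelial laminin, had 3.5 fragments in the TAZ libraries and 2.0 in the controls. ITGB4, the beta subunit of hemidesmosomes, was at 0.540, 0.594 and 0.567 FPKM in TAZ libraries and 0.717, 0.933 and 0.757 FPKM in controls, called lower with no filter (0.0343) but not with voom (0.0563). Among the epithelial markers, 11 genes summed to 1.18 to 1.81 FPKM in TAZ libraries and 1.53 to 2.16 FPKM in controls, most of it CLDN4, and CLDN7 was at 0 in every library. KRT14 was at 0.0447 to 0.115 FPKM in TAZ libraries and 0.422 to 0.658 FPKM in controls, and was called lower in both fits (adjusted p = 0.00314 and 0.000311). CDH1, at 0 to 0.0176 FPKM in TAZ libraries and 0.0620 to 0.207 FPKM in controls, was also called lower in both (0.0388 and 0.000476). EPCAM, at 0.0188 to 0.0348 FPKM in TAZ libraries and 0 to 0.00928 FPKM in controls, was called higher with voom (0.0104) but not with no filter (0.0662). The part of epithelial cells in these values was not tested.

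ITGA10, the cartilage collagen receptor subunit, stood at 0.281, 0.218 and 0.218 FPKM in TAZ libraries, against 0.959, 0.692 and 0.682 FPKM in controls. It was called lower in both fits (adjusted p = 0.00201 with no filter, 0.000108 with voom), on 75.5 and 235.5 fragments. ITGA2, also a collagen-binding subunit, had 8.0 fragments in the TAZ libraries and 22.5 in the controls, and was called lower with voom only (0.0208, against 0.102 with no filter). All 4 collagen-binding alpha genes thus had lower values in every TAZ library than in any control, as 28.7% of all tested genes and 14.0% of those under the filter did. ITGB6 had 0 fragments in the TAZ libraries and 4.0 in the controls, and since each 0 leaves room for as many as 3 fragments in a library, no fold is given. It was called lower with voom (0.0024) but not with no filter (0.155). LAMC3 had 16.5 and 34.5 fragments in TAZ and control libraries, and LAMB4 0 and 1.0.

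The cytoplasmic partners of integrins were compared from a list of adhesion adaptors, which carry force and signals from the beta tail to actin. Of 32 tested genes 4 were higher and 12 lower, or 12.5 and 37.5%, against 15.7 and 22.1% of all tested genes, and 2 were higher without TAZ replicate 1 or control replicate 2. The median log2 fold change was -0.15. ZYX, which encodes the stress-sensing adhesion protein zyxin, fell to 278.3 ± 13.1 FPKM in TAZ libraries, against 518.3 ± 57.1 FPKM in controls (SD, n = 3 each, log2 fold change -0.89, SE 0.094, limma adjusted p = 8.02e-06). TGFB1I1, a paxillin relative, was at 50.4 ± 3.74 and 78.0 ± 4.61 FPKM in TAZ and control libraries (adjusted p = 9.84e-05), and TLN2, the less abundant talin, at 0.813 ± 0.144 and 1.90 ± 0.159 FPKM (adjusted p = 0.000148). TLN2 passed the filter only through the controls.

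The complex of ILK, PINCH and parvin, which sits between integrin beta tails and actin, was singled out after its values had been seen. ILK fell to 169.2 ± 8.73 FPKM in TAZ libraries, against 216.9 ± 8.48 FPKM in controls (log2 fold change -0.36, SE 0.080, limma adjusted p = 0.00342). PARVA and PARVB, the parvins, fell by 0.44 and 0.44 on the log2 scale (adjusted p = 0.00173 and 0.00191). LIMS1 and LIMS2, which encode the PINCH proteins, had log2 fold changes of -0.41 and -0.37 (adjusted p = 0.0135 and 0.0465). LIMS1 did not pass without TAZ replicate 2 (0.0657) or with no filter (0.0514). LIMS2 passed neither without TAZ replicate 1, 2 or 3 (0.0553, 0.144 and 0.0595) nor without control replicate 2 or 3 (0.208 and 0.0502). The LIMS2 call was also lost with no filter (0.141), under median-ratio scaling (0.0773) and in limma's voom on recovered fragments (0.0531).

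Ligands of integrins outside the laminins went both ways, with 3 of 14 tested genes higher (21.4%) and 4 lower (28.6%), against 15.7 and 22.1% of all tested genes, and a median of -0.078. ICAM1, the ligand of the beta2 integrins, rose to 43.9 ± 2.11 FPKM in TAZ libraries, against 2.48 ± 0.363 FPKM in controls (SD, n = 3 each, log2 fold change 3.69, SE 0.10, limma adjusted p = 6.4e-12). LTBP1, which holds latent TGF-beta in the matrix where alphaV integrins act on it, rose to 59.1 ± 4.69 FPKM in TAZ libraries, against 32.5 ± 5.14 FPKM in controls (adjusted p = 6.31e-05). TGFB1 and TGFB3, whose latent forms carry the RGD motif that alphaV integrins bind, were named after their values had been seen. TGFB1 fell to 26.5 ± 2.86 FPKM in TAZ libraries, against 39.1 ± 3.69 FPKM in controls (adjusted p = 0.000916), and TGFB3 to 2.33 ± 0.245 FPKM, against 4.87 ± 1.19 FPKM (adjusted p = 0.000586). THBS1, thrombospondin 1, was at 538.5 ± 71.3 and 297.9 ± 40.0 FPKM in TAZ and control libraries, and TGFBI, a secreted integrin ligand, at 1285 ± 35.8 and 1948 ± 73.4 FPKM (adjusted p = 7.2e-05 for each). FN1, fibronectin itself, did not pass (adjusted p = 0.953).

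Of the other basement membrane genes, 5 of 15 tested were higher and 5 lower, or 33.3% each way, against 15.7 and 22.1% of all tested genes. Without TAZ replicate 2, with no filter or with a filter at a mean of 5 FPKM, 3 were lower. AGRN, which encodes agrin, a heparan sulfate proteoglycan that binds laminin, rose to 60.4 ± 1.14 FPKM in TAZ libraries, against 7.43 ± 0.827 FPKM in controls (SD, n = 3 each, log2 fold change 2.87, SE 0.093, limma adjusted p = 3.82e-11). In the TAZ libraries AGRN was above HSPG2, and in the controls it was far below it. COL4A1, a chain of the collagen IV network, rose to 99.0 ± 7.49 FPKM in TAZ libraries, against 65.2 ± 1.48 FPKM in controls (log2 fold change 0.59, adjusted p = 9.96e-05). FBLN2, fibulin 2, a nidogen- and laminin-binding protein, rose to 91.1 ± 10.7 FPKM in TAZ libraries, against 56.4 ± 5.03 FPKM in controls (adjusted p = 0.000155). SMOC1, a matrix protein related to SPARC, fell to 0.190 ± 0.0402 FPKM in TAZ libraries, against 1.98 ± 0.315 FPKM in controls (adjusted p = 3.97e-07), and passed the filter only through the controls.

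The laminin receptors that are not integrins, with their partners, had 2 of 12 tested genes higher and 4 lower, or 16.7 and 33.3%, against 15.7 and 22.1% of all tested genes. SDC4, a syndecan of focal adhesions, rose to 189.1 ± 5.98 FPKM in TAZ libraries, against 88.7 ± 9.66 FPKM in controls (SD, n = 3 each, log2 fold change 1.09, SE 0.090, limma adjusted p = 7.64e-07). SDC2, another syndecan, fell to 3.32 ± 0.415 FPKM in TAZ libraries, against 9.66 ± 1.34 FPKM in controls (log2 fold change -1.30, adjusted p = 1.49e-06). CD44, a hyaluronan receptor that also binds matrix proteins, was at 140.5 ± 7.96 and 95.6 ± 9.02 FPKM in TAZ and control libraries (adjusted p = 0.000336). SGCB, a sarcoglycan of the dystroglycan complex, was at 6.26 ± 0.375 and 9.32 ± 1.31 FPKM (adjusted p = 0.00263). DAG1, dystroglycan itself, did not pass (adjusted p = 0.185).

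**Figure D5:**
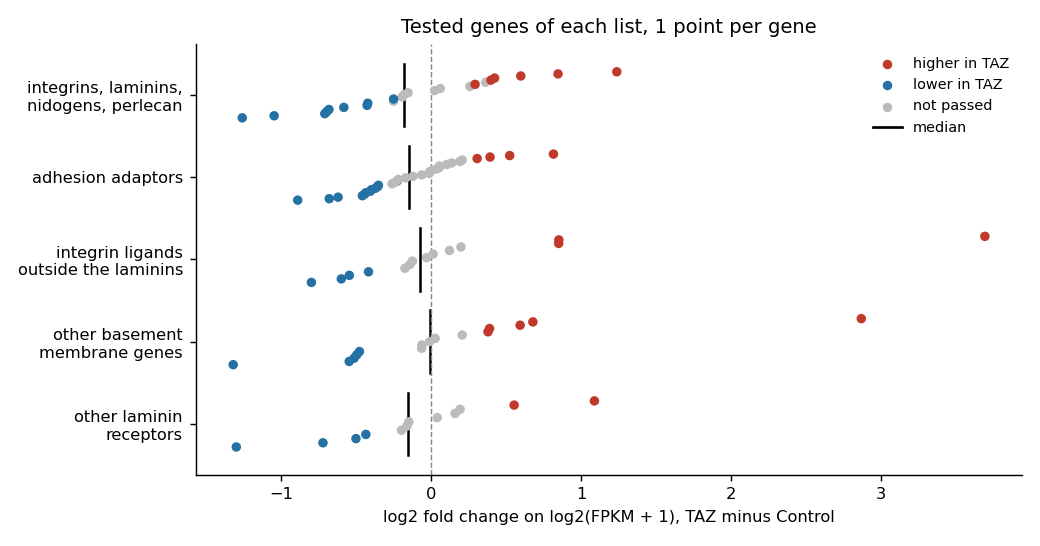
Log2 fold change (TAZ minus Control, on the log2(FPKM + 1) scale) of the tested genes in 5 gene groups, 1 point per gene, coloured red for higher, blue for lower and grey for not called, with the median of each group as a vertical bar. Every group holds genes on both sides of 0, and ICAM1 at 3.69 and AGRN at 2.87 lie farthest to the right.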

How the data were processed

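The submitters' processing notes name fastp, HISAT2 and HTSeq, without versions. Build, strand setting and the handling of reads shared by paralogs: not given in the sources used here. Coordinates are therefore left out, and values of paralogous or overlapping genes may be uncertain. The authors deposited FPKM values, 1 table per group, per the file headers; 23 of 16285 rows hold a date in place of a symbol and were left out. All 37 symbols are in RefSeq's gene table of ARS1.2. Library totals and fragments were recovered as the smallest gene length that puts all 6 values on steps of 0.5 fragment (99.99% of rows, largest distance 0.0127 fragment; 99.67 to 99.71% of each total). Where a multiple of that length is the true one, fragments are understated. Floors cover counting error only.

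The filter kept the 10750 genes with 3 or more libraries at 1 FPKM or above. Groups, taken from the sample titles, were compared on log2(FPKM + 1) by a two-sided moderated test with a mean-variance trend (limma 3.58.1, R 4.3.3) and Benjamini-Hochberg adjustment. The fit was tested on simulated data. Nothing in the labels says that replicates are separate cultures or animals, so p-values measure the spread between libraries, which may be technical. Members and gene lists were chosen with earlier results of these data known. Library values were given for the 8 integrins and 6 other members with the lowest adjusted p and the most abundant member of each role, to which the remaining members were added, and for each list the 4 genes with the lowest adjusted p. Some genes that the rule names are counted but not reported here. The alternatives were 2 pseudocounts (0.1 and 0.5), no filter, a filter at a mean of 5 FPKM, quantile normalization, median-ratio scaling, no trend, robust empirical Bayes, voom on recovered fragments, a replicate block and leaving out each library.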

Additional observations from a re-analysis of the deposited data

How the results depend on the processing

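The calls of ITGA11, ITGA3, ITGA6, ITGB7, ITGB8, LAMA4, HSPG2 and NID2 held in every alternative in which they were tested. So did the calls of ITGA8 and LAMA2, but most alternatives share the filter to which their direction was bound. With no filter both were also called lower (limma adjusted p = 0.000745 and 0.00212). All 23 tested genes kept their direction outside the fits that left out a library. There, ITGB1 ran up to 0.12 and LAMA5 to 0.23, but ITGB1 turned to -0.014, -0.013 and -0.11 without TAZ replicate 1, TAZ replicate 2 and control replicate 2, and LAMA5 to -0.046 and -0.19 without TAZ replicate 2 and control replicate 2, none of them past the threshold. Leaving out 1 library at a time gave 2 to 5 integrin genes higher and 5 to 6 lower, where 4 and 6 were reported, and the 2 arose without control replicate 2. It gave 1 to 3 laminin, nidogen and perlecan genes higher and 3 to 4 lower, with 1 higher without TAZ replicate 1, TAZ replicate 2 or control replicate 2. For the adaptors it gave 2 to 5 higher, with 2 without TAZ replicate 1 or control replicate 2, and 10 to 12 lower. For the ligands it gave 3 higher and 4 to 5 lower, for the laminin receptors 2 and 4, and over all genes 1386 to 1878 higher and 1819 to 2518 lower. For the other basement membrane genes it gave 4 to 5 higher and 3 to 5 lower, and 3 were lower without TAZ replicate 2, with no filter and with the stricter filter; fewer genes are tested under the last, and the other causes were not tested. Replicate numbers did not pair the samples, since deviations of same-numbered libraries correlated at -0.44, -0.11 and -0.40 over genes. No library correlated best with its own number, and the highest values were 0.69 for TAZ replicate 1 with control replicate 3, 0.53 for TAZ 2 with control 1 and 0.55 for TAZ 3 with control 2. The main test took the libraries as unpaired and the replicate block went by replicate number, so neither accounted for variation shared under other numbers. Whether libraries were paired under other numbers was not tested. With the replicate block 3512 genes in all were called in place of 4074, and 1 laminin, nidogen or perlecan gene was higher in place of 2. Under the block ITGB5 and NID1 did not pass (limma adjusted p = 0.104 and 0.0516) and ITGA4 did (0.0194). Scaling by median ratios moved the median of all genes to -0.0044. The genes under 1 FPKM rest on few fragments, and changes in ITGAM, LAMB3 and LAMB4 were not detectable at this depth.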
